A study of Mus musculus with 15 samples.

Results

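The liver X receptors (LXR), their retinoid X receptor partners and a set of LXR-driven sterol and phospholipid genes were followed across 15 RNA-seq libraries of BV2 cells, a mouse microglial line. The set was chosen by gene symbol and holds 10 of the 54390 genes in the deposited tables: the receptors Nr1h2 and Nr1h3, the partners Rxra and Rxrb, the exporters Abca1 and Abcg1, the ubiquitin ligase Mylip, and the lipid genes Lpcat3, Pltp and Smpdl3a. The 4 groups were WT non-foamy (WT_NF, n = 4), WT foamy (WT_F, n = 4), Trem2-/- non-foamy (labelled Trem2KO, KO_NF, n = 3) and Trem2-/- foamy (KO_F, n = 4). Foamy cells had been given 20 µg/ml soluble cholesterol, a complex with methyl-beta-cyclodextrin, overnight, and non-foamy cells had been given media alone. No group was given the carrier without cholesterol, so effects of carrier and cholesterol cannot be told apart. Below, a response to cholesterol means a response to this complex. The Trem2-/- cells were grown from single cells of a Cas9-expressing BV2 line, itself a single clone, after transfection with a guide against Trem2, so that clone and genotype cannot be told apart. Nothing in the labels or methods says whether libraries of a group came from separate cultures, and the p-values then measure only the spread between these libraries, which may be technical.

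LXRα, encoded by Nr1h3, and LXRβ, encoded by Nr1h2, are nuclear receptors that bind oxysterols and some sterol precursors when cell cholesterol is high. Each binds DNA as a heterodimer with a retinoid X receptor, at repeats of a short half-site spaced by 4 bases (DR4). In macrophages and microglia the heterodimer switches on Abca1, which passes cholesterol to lipid-poor apolipoprotein A-I, and Abcg1, which passes it to high-density lipoprotein. It also switches on Mylip (also called IDOL), an E3 ligase that sends lipoprotein receptors for degradation. Lpcat3 places polyunsaturated acyl chains into phospholipids, Pltp moves phospholipids between lipoproteins, and Smpdl3a is a secreted phosphodiesterase related to acid sphingomyelinase.

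Of the 10 genes, 8 were counted in every library and could be tested. Smpdl3a was listed at 0 reads in all 15 libraries, where 3 reads would correspond to between 0.072 and 0.127 CPM, read counts scaled to a common library size. Pltp had 12 reads in all, spread over 5 of the 15 libraries with at most 5 reads in any one, and 19.32% of its exonic bases overlap Ctsa on the other strand. Among the 8 tested genes, counts per library ran from 353 for Nr1h3 to 3444 for Abcg1. Exons of Lpcat3 overlap those of Emg1 on the other strand over 10.22% of their bases, those of Nr1h3 overlap Gm13783 over 1.35%, and the other 6 tested genes overlap no annotated gene. The strand setting of the counting was not stated, so reads from the Emg1 overlap cannot be told apart from those of Lpcat3.

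Libraries held 23538963 to 41683825 counted reads, and each pair of libraries from 1 group differed beyond sampling noise. WT non-foamy replicate 3 and WT foamy replicate 1 were farthest from the other libraries of their groups, with chi-square values per gene of 30.7 to 39.87 and 19.43 to 45.86, respectively. Trem2, the targeted gene, ran from 327 to 415 CPM in the WT libraries and from 214 to 232 CPM in the Trem2-/- libraries, with no overlap. Reads on an edited transcript are still counted, and a loss of protein would not be seen in these values. In this paragraph sums over markers are scaled by total counts alone, while levels of single genes are also scaled by TMM factors. Of 12 microglia and macrophage markers, 11 reached 10 reads in some library. Their summed level was 3760 to 4090 CPM in WT non-foamy, 4130 to 4280 in WT foamy, 4850 to 5150 in Trem2-/- non-foamy and 4850 to 5180 in Trem2-/- foamy libraries. Sall1, Tmem119, P2ry12 and Cx3cr1, which mark resident microglia, were at 0 or low, and the latter 3 had mean levels of at most 1.76 CPM in every group. Markers of astrocytes, neurons, fibroblasts and lymphocytes summed to at most 0.34 CPM in any library. Markers of oligodendrocytes summed to at most 2.57 CPM and those of endothelial cells, nearly all Kdr, to at most 10.6 CPM.

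Promoter sequences from RefSeq (GRCm38.p6, 250 bases before to 50 bases after a start site) were found for 8 of the 10 genes, in 11 windows. The bases just upstream of the start site are shown for Abca1 and Mylip, which changed together in the comparisons that follow. Capitals mark the best match to a DR4 repeat, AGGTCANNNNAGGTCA, on either strand, with up to 3 mismatches over its 12 fixed letters.
Abca1, chr4:53159896-53160015, minus strand: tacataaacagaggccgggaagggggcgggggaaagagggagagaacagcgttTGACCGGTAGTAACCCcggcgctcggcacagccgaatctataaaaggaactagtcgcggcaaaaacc
Mylip, chr13:45389622-45389741, plus strand: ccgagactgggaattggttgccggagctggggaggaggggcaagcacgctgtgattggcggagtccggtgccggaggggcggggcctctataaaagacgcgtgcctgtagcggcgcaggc
The Abca1 match begins 67 bases upstream of the start site and reads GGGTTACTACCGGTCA on the other strand, with 3 mismatches. One of the 2 Rxra windows also held a match with 3 mismatches, and no other window of the set held one, Mylip included. A match this loose is common, since 21.9% of 32851 mouse promoter windows of 300 bases held one, against 3.02% with at most 2 mismatches. The match is a description of the letters alone, and no binding was measured in these libraries.

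In WT cells, cholesterol raised Abca1, Abcg1 and Mylip, and no other gene of the set passed the test. Abca1 was at 34.8, 36.8, 28.9 and 36.5 CPM in the WT non-foamy libraries and at 74.6, 59.4, 53.8 and 55.0 CPM in the WT foamy ones. Abcg1 was at 45.0, 45.1, 34.4 and 45.9 CPM without cholesterol and at 83.2, 77.9, 60.3 and 66.9 CPM with it. Mylip was at 20.3, 22.3, 20.0 and 22.8 CPM without cholesterol and at 31.1, 30.8, 29.7 and 27.1 CPM with it. Every foamy library lay above every non-foamy one for each of these 3 genes. By edgeR's quasi-likelihood test, the fitted change was 0.82 ± 0.09 on the log2 scale for Abca1 (± s.e., with an adjusted p of 3e-05), 0.76 ± 0.10 for Abcg1 (adjusted p = 8.8e-05) and 0.47 ± 0.07 for Mylip (adjusted p = 0.00065). These correspond to 1.77-fold, 1.69-fold and 1.39-fold higher levels. In bulk RNA, more cells that express a gene and more RNA of it per cell cannot be told apart. With 3 of 8 tested genes called, the set compares with a background of 2.80% of all 14237 tested genes called in this comparison. Without the most distant library of each WT group, which was decided after seeing the data, the same 3 genes were called.

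**Figure D1:**
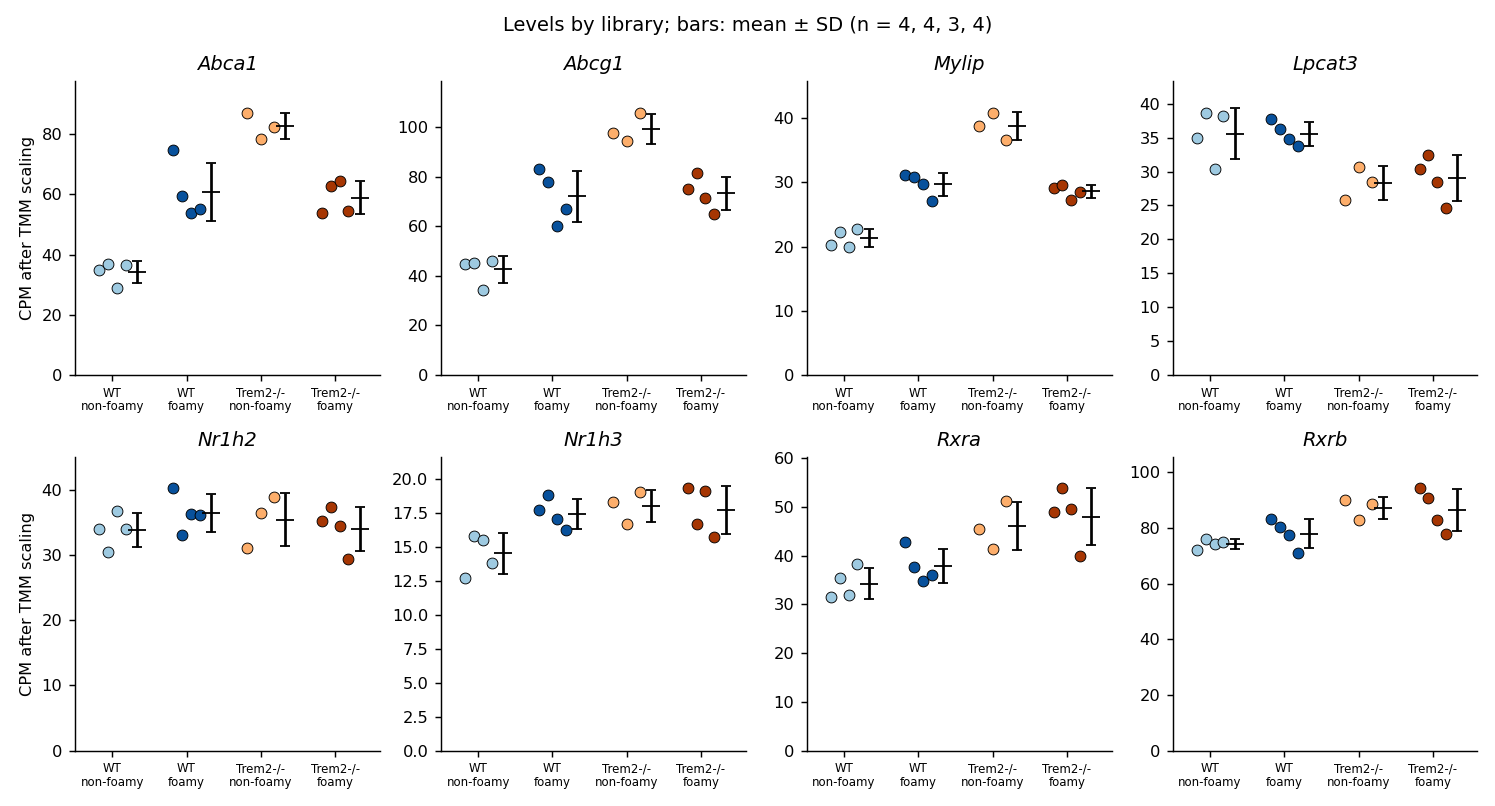
Level of each of the 8 tested genes in every library, in CPM after TMM scaling, with the groups on the x axis; points are libraries and the bars to their right are the mean and SD of a group (n = 4, 4, 3 and 4). Abca1, Abcg1 and Mylip are lowest in WT non-foamy and highest in Trem2-/- non-foamy libraries, while both foamy groups overlap between them.

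Nr1h3, which is itself known as an LXR target in human macrophages, sat at 12.7, 15.8, 15.5 and 13.8 CPM in WT non-foamy libraries and at 17.7, 18.8, 17 and 16.2 CPM in WT foamy libraries. Its groups did not overlap, but the log2 fold change of 0.27 (s.e. 0.09) had an adjusted p of 0.124 and was not called. Libraries of the 2 groups did not overlap for 4 of the 8 genes, against 9.71% of all tested genes. Nr1h2 (0.11, 95% interval -0.07 to 0.29), Rxra (0.14, -0.05 to 0.34), Rxrb (0.07, -0.07 to 0.21) and Lpcat3 (0.00, -0.18 to 0.19) had log2 fold changes whose intervals held 0. None of the 8 genes was lower at an unadjusted p under 0.05, by edgeR, and DESeq2 called none lower.

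In Trem2-/- cells the same 3 genes were lower, not higher, after cholesterol. Abca1 was at 87.2, 78.4 and 82.4 CPM without cholesterol and at 53.7, 62.9, 64.3 and 54.6 CPM with it. Abcg1 was at 97.8, 94.3 and 106 CPM without cholesterol and at 75.2, 81.4, 71.6 and 65.1 CPM with it. Mylip was at 38.8, 40.9 and 36.6 CPM without cholesterol and at 29.1, 29.6, 27.2 and 28.5 CPM with it. Again the groups did not overlap for any of the 3 genes, now with the foamy libraries below, against a background of 9.26% of tested genes with no overlap.

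The test called Abca1, at -0.49 ± 0.10 on the log2 scale (s.e., adjusted p = 0.0478), and Mylip, at -0.44 ± 0.08 (adjusted p = 0.0128), in this comparison, and gave Abcg1 -0.44 ± 0.10 with an adjusted p of 0.169. Few genes were called here: 20 of the tested genes, which is 0.140%, and Abca1 and Mylip were 2 of the 5 called lower. The calls were not stable to the loss of a library. Abca1 lost its call in all 7 fits that left out 1 library of the 2 groups and Mylip in 3 of them, those without Trem2-/- non-foamy replicate 1 (adjusted p = 0.104) or 2 (0.183) or Trem2-/- foamy replicate 3 (0.08), although their log2 fold changes stayed between -0.54 and -0.45 and between -0.48 and -0.40. Scaled by total counts alone, neither Abca1 (adjusted p = 0.327) nor Mylip (adjusted p = 0.121) was called. DESeq2 called all 3 genes lower. For Nr1h2, Nr1h3, Rxra, Rxrb and Lpcat3 the log2 fold changes lay between -0.06 and 0.06, none was called by either tool, and none had an unadjusted p under 0.05.

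The difference between the 2 responses was tested directly, as the change with cholesterol in Trem2-/- cells minus that in WT cells. On the log2 scale Abca1 had a difference of -1.31 ± 0.14 (s.e., adjusted p = 4.32e-06), Abcg1 one of -1.19 ± 0.14 (adjusted p = 2.25e-05) and Mylip one of -0.91 ± 0.11 (adjusted p = 2.04e-05). Thus 3 of 8 genes were called where 3.64% of all tested genes were, and these 3 were called in all 15 fits that left out 1 library. For Nr1h3 the difference was -0.30 (s.e. 0.14, adjusted p = 0.261), in the same direction as the efflux genes but not called. The differences for Nr1h2 (-0.17, 95% interval -0.43 to 0.10), Rxra (-0.08, -0.36 to 0.20), Rxrb (-0.08, -0.28 to 0.12) and Lpcat3 (0.03, -0.24 to 0.31) had intervals that held 0.

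**Figure D2:**
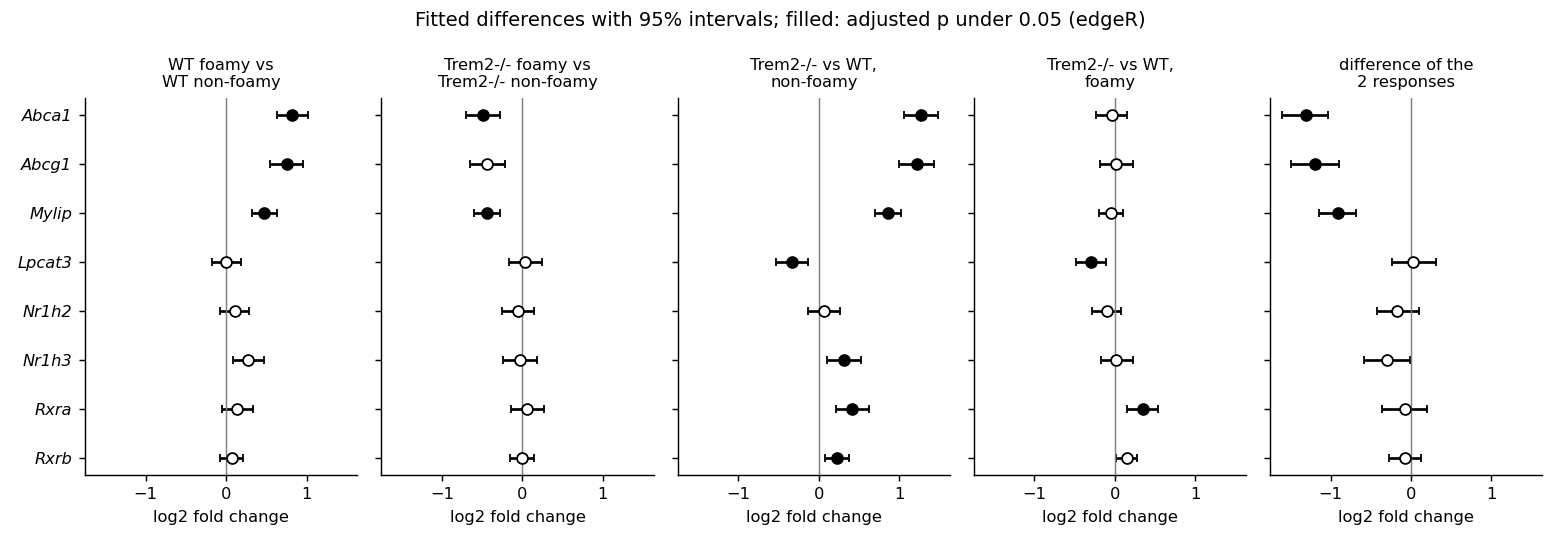
Fitted log2 fold changes with 95% intervals for the 8 tested genes in 5 comparisons, 1 panel each; filled points have an edgeR adjusted p under 0.05. Abca1, Abcg1 and Mylip lie right of 0 in WT foamy against WT non-foamy, left of 0 in the Trem2-/- response and near 0 between the genotypes in foamy cells.

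Without cholesterol, Trem2-/- cells already held more of the efflux transcripts than WT cells, and 7 of 8 genes of the set differed between the genotypes. Many genes differed here: 43.6% of all tested genes were called, and 46.1% had no overlap between the 2 groups, which held for 6 genes of the set. Abca1 was 2.41-fold higher (log2 fold change 1.27, s.e. 0.10, adjusted p = 1.14e-09), from 34.2 ± 3.67 CPM (SD, n = 4) in WT to 82.7 ± 4.40 CPM (n = 3) in Trem2-/- cells. Abcg1 was 2.33-fold higher (1.22, s.e. 0.10, adjusted p = 3.36e-09), from 42.6 ± 5.51 to 99.4 ± 6.0 CPM. Mylip was 1.81-fold higher (0.86, s.e. 0.08, adjusted p = 8.88e-09), from 21.3 ± 1.42 to 38.8 ± 2.14 CPM. The changes of these 3 genes were larger than those of the receptors, and they came with the higher summed level of macrophage markers given above, whose part in them was not tested. The markers were split, since of 11 tested 7 were called higher and 2 lower in Trem2-/- cells, Cx3cr1 (-2.35) and P2ry12 (-1.51).

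Among the receptors, Nr1h3 rose from 14.5 ± 1.5 to 18 ± 1.17 CPM (log2 fold change 0.32, s.e. 0.10, adjusted p = 0.0132). Its 3 Trem2-/- non-foamy libraries held 18.3, 16.7 and 19.0 CPM, above the WT non-foamy values. Nr1h2 did not pass the test, with 34.0, 30.5, 36.7 and 33.9 CPM in WT and 31.0, 36.4 and 38.9 CPM in Trem2-/- cells (0.07, 95% interval -0.13 to 0.27, adjusted p = 0.587). Of the heterodimer partners, Rxra had 31.5, 35.3, 31.9 and 38.2 CPM in WT and 45.5, 41.3 and 51.2 CPM in Trem2-/- cells (0.42, s.e. 0.10, adjusted p = 0.00136). Rxrb had 72.1, 76.2, 74.1 and 74.9 CPM in WT and 90.0, 82.8 and 88.7 CPM in Trem2-/- cells (0.23, s.e. 0.07, adjusted p = 0.0108). The calls for Nr1h3, Rxra and Rxrb were lost when libraries were scaled by total counts alone (log2 fold changes of 0.18, 0.28 and 0.09). Nr1h3 also lost its call without WT non-foamy replicate 1 (adjusted p = 0.0544) or Trem2-/- non-foamy replicate 3 (0.0649), and Rxrb without Trem2-/- non-foamy replicate 1 (0.0564). Lpcat3 went the other way, from 35.0, 38.7, 30.4 and 38.2 CPM in WT to 25.8, 30.7 and 28.5 CPM in Trem2-/- cells (-0.33, s.e. 0.10, adjusted p = 0.00824), where 1 library of each group overlapped. Without Trem2-/- non-foamy replicate 1 the adjusted p for Lpcat3 was 0.066.

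With cholesterol, the genotypes no longer differed detectably in Abca1, Abcg1 or Mylip. The log2 fold changes of Trem2-/- foamy against WT foamy cells were -0.04 for Abca1 (95% interval -0.24 to 0.15), 0.02 for Abcg1 (-0.18 to 0.22) and -0.05 for Mylip (-0.20 to 0.10), and the libraries of the groups overlapped for each gene. In WT and Trem2-/- foamy cells, respectively, the means were 60.7 ± 9.58 and 58.9 ± 5.49 CPM for Abca1, 72.1 ± 10.4 and 73.3 ± 6.83 CPM for Abcg1, and 29.7 ± 1.81 and 28.6 ± 1.04 CPM for Mylip (SD, n = 4 each). Of the 8 genes 2 were called, where 30.2% of all tested genes were, and 28.8% of all tested genes had no overlap.

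The genes called in foamy cells were Rxra and Lpcat3. Rxra was at 42.8, 37.6, 34.8 and 36.0 CPM in WT foamy and at 49.0, 53.8, 49.5 and 39.8 CPM in Trem2-/- foamy libraries (log2 fold change 0.35, s.e. 0.09, adjusted p = 0.00645), with an overlap of 1 library of each group. Scaled by total counts alone, the value for Rxra was 0.21 and was not called. Lpcat3 was at 37.8, 36.3, 34.8 and 33.7 CPM in WT foamy and at 30.4, 32.5, 28.4 and 24.6 CPM in Trem2-/- foamy libraries, with no overlap (-0.30, s.e. 0.09, adjusted p = 0.0141, and 0.0581 without Trem2-/- foamy replicate 4). Thus Lpcat3 and Rxra differed between the genotypes by similar amounts with and without cholesterol. Rxrb was at 83.1, 80.4, 77.4 and 71.1 CPM in WT foamy and at 94.3, 90.9, 82.7 and 77.9 CPM in Trem2-/- foamy libraries (0.15, s.e. 0.07, adjusted p = 0.0929, and 0.029 without Trem2-/- foamy replicate 4). Nr1h3 was at 19.3, 16.7, 19.1 and 15.7 CPM in Trem2-/- foamy libraries, with a difference from WT foamy cells of 0.02 (adjusted p = 0.888). Nr1h2 was at 40.2, 33.1, 36.2 and 36.1 CPM in WT foamy and at 35.2, 37.3, 34.4 and 29.3 CPM in Trem2-/- foamy libraries (-0.10, adjusted p = 0.439).

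The 4 groups could then be put in order. For Abca1, Abcg1 and Mylip the order was WT non-foamy, then both foamy groups, then Trem2-/- non-foamy cells. The step between the foamy groups was not detectable. The libraries of neighbouring groups did not overlap at any other step, where every test passed except that for Abcg1 between Trem2-/- foamy and non-foamy cells. Trem2-/- non-foamy cells exceeded even cholesterol-loaded WT cells, by log2 fold changes of 0.45 for Abca1 (adjusted p = 0.00144), 0.46 for Abcg1 (adjusted p = 0.00135) and 0.39 for Mylip (adjusted p = 0.000526). Scaled by total counts alone, Abca1 (0.30, adjusted p = 0.0911) and Abcg1 (0.32, adjusted p = 0.0791) were not called, nor was Rxra (0.14, adjusted p = 0.425). In that comparison 5 of 8 genes were called, where 32.7% of all tested genes were, with Rxra (0.28) also higher and Lpcat3 (-0.33) lower. Rxra lost that call in 5 of the 7 fits without 1 library, all but those without WT foamy replicate 1 or Trem2-/- non-foamy replicate 2 (adjusted p up to 0.199), and Lpcat3 without Trem2-/- non-foamy replicate 1 (0.0842). Trem2-/- foamy cells exceeded WT non-foamy cells in 6 genes, by 0.78 for Abca1, 0.78 for Abcg1, 0.42 for Mylip, 0.29 for Nr1h3, 0.49 for Rxra and 0.22 for Rxrb, and were lower in Lpcat3 (-0.30). The background there was 42.3% of all tested genes. Nr1h3 lost its call without WT non-foamy replicate 1 (adjusted p = 0.0681) or Trem2-/- foamy replicate 1 (0.0573) or 3 (0.0506), and Rxrb without Trem2-/- foamy replicate 1 (0.0514). With total counts alone, neither Nr1h3 (0.16, adjusted p = 0.212) nor Rxrb (0.09, adjusted p = 0.412) was called in this comparison.

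Levels can be compared between genes only per length, in CPM per kilobase of annotated exons. Rxrb was the most abundant of the 8 transcripts in every group, at 18.7 and 19.6 CPM per kilobase in WT cells without and with cholesterol and 21.9 and 21.8 in Trem2-/- cells. Within a library the ratio of Rxrb to Rxra was 3.0 ± 0.227 in WT non-foamy and 2.49 ± 0.21 in Trem2-/- foamy cells (SD, n = 4 each). Nr1h2 exceeded Nr1h3 per length in every library, by ratios of 1.27 to 2.01. The mean ratio of Nr1h2 to Nr1h3 was 1.77 in WT non-foamy cells and between 1.45 and 1.57 in the other groups. Abca1 was the least abundant per length in WT non-foamy cells, at 3.30 CPM per kilobase, and reached 7.98 in Trem2-/- non-foamy cells. The ratio of Abcg1 to Abca1 per length hardly moved while both levels changed, with group means of 1.77, 1.69, 1.71 and 1.77. Mylip went from 6.60 to 9.17 CPM per kilobase with cholesterol in WT cells and from 12 to 8.84 in Trem2-/- cells.

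The efflux genes also followed each other library by library. Across the 15 libraries, which include the differences between the 4 groups, Abcg1 had the highest Pearson correlation with Abca1 in log2 CPM (r = 0.979) among 11708 genes whose mean reached 1 CPM. Slc37a2, a sugar phosphate transporter (r = 0.959), Fndc3a (0.956), Csf2rb, the shared beta chain of cytokine receptors (0.955), and Pyroxd2 (0.955) came next. Csf2rb has a near-identical neighbour, Csf2rb2, and its reads may be shared with it. Mylip ranked 7 (r = 0.948). The receptors were far less like Abca1, with r of 0.716 for Nr1h3, 0.717 for Rxra, 0.68 for Rxrb and 0.225 for Nr1h2, and Lpcat3 had r = -0.408. Among the other members Rxra and Rxrb were most like each other (r = 0.885), and Nr1h2 had no close match, with r = 0.263 for Lpcat3. These values describe libraries that share groups and carry no test.

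Of 24 other LXR target genes 17 could be tested. In WT cells cholesterol raised 3 of them, Mertk, an engulfment receptor (0.57), Arl4c, a small GTPase tied to cholesterol export (0.44), and Apoe, the apolipoprotein of lipid efflux (0.31), and lowered none. Of all tested genes 2.80% were called in this comparison. The list had 1 gene lower at an unadjusted p under 0.05 (edgeR), and DESeq2 called none lower. In Trem2-/- cells none was called either way by edgeR, with 2 lower and 0 higher at an unadjusted p under 0.05, and DESeq2 called 1 lower. The share of all tested genes called by edgeR there was 0.140%. The responses differed for Arl4c (-0.69, s.e. 0.09, adjusted p = 0.000104), Mertk (-0.73, s.e. 0.12, adjusted p = 0.00099) and Apoe (-0.45, s.e. 0.10, adjusted p = 0.0155), each with a lower value in Trem2-/- cells. The median difference of responses over the list was -0.41, beside 0.00 over all tested genes, of which 3.64% were called.

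Group means below are given for WT cells without and with cholesterol, then for Trem2-/- cells without and with cholesterol. Arl4c was at 58.8, 79.7, 106 and 89.2 CPM, lowest and highest in the same groups as Abca1. Mertk (29.3, 43.7, 69.1 and 61.8 CPM) and Apoe (1770, 2200, 4120 and 3760 CPM) were higher in both Trem2-/- groups than in both WT groups. The list was mixed between the genotypes: without cholesterol 7 of the 17 genes were higher and 5 lower in Trem2-/- cells, and with cholesterol 5 were higher and 8 lower, beside 43.6% and 30.2% of all tested genes called in either direction. The median log2 fold change was 0.08 in both comparisons, beside 0.02 and 0.00 over all tested genes.

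**Figure D3:**
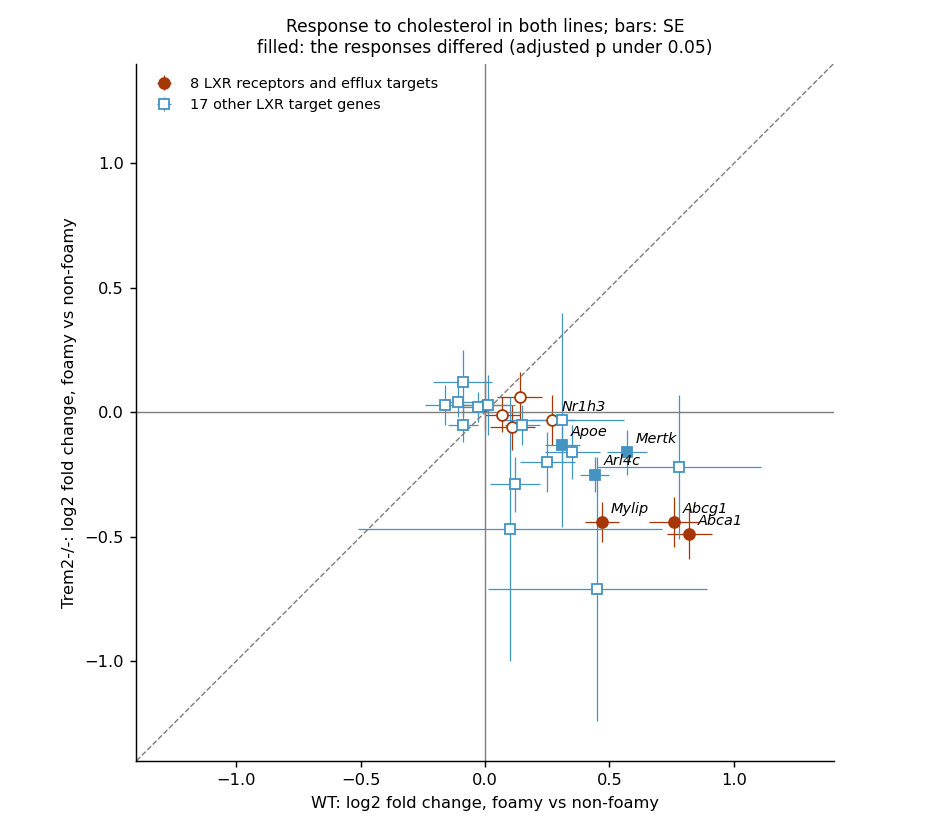
Log2 fold change with cholesterol in WT (x axis) and Trem2-/- cells (y axis) for the 8 tested genes of the set (circles) and 17 other LXR target genes (squares), with standard errors as bars and equality as the dashed line. Filled symbols mark genes whose responses differed (edgeR adjusted p under 0.05): Abca1, Abcg1, Mylip, Arl4c, Mertk and Apoe, all below the line and right of 0.

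Other sterol exporters did not respond as Abca1 and Abcg1 did. Of 9 tested, none was called with cholesterol in either genotype by edgeR, although 3 were higher and 1 lower at an unadjusted p under 0.05 in WT cells and DESeq2 called Abca5 higher there. In Trem2-/- cells 0 of the 9 had an unadjusted p under 0.05 and DESeq2 called 0. Between the genotypes without cholesterol, Abca5 (0.79), Abca9 (0.42) and Abca6 (0.46) were higher and Scarb1, the high-density lipoprotein receptor (-0.58), and Abca2 (-0.75) were lower in Trem2-/- cells, and the same counts of 3 higher and 2 lower held with cholesterol. The share of all tested genes called between the genotypes was 43.6% without and 30.2% with cholesterol. The difference of responses was called for none of the 9 genes, where 3.64% of all tested genes were called. At an unadjusted p under 0.05 (edgeR) 1 was higher and 1 lower, and DESeq2 called none.

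Enzymes that make or use sterol ligands included 7 tested genes. Cyp27a1, the sterol 27-hydroxylase, rose with cholesterol in WT cells (0.35), as did Soat1, which esterifies cholesterol (0.21), and Sc5d, a late step of sterol synthesis, fell (-0.39). The share of all tested genes called there was 2.80%. None of the 7 was called in Trem2-/- cells by edgeR or DESeq2, with 2 higher and 0 lower at an unadjusted p under 0.05. The share of all tested genes called by edgeR in that response was 0.140%. The responses differed for Sc5d (0.64, adjusted p = 0.00103), Cyp27a1 (-0.36, adjusted p = 0.0446) and Soat1 (-0.30, adjusted p = 0.0446), where 3.64% of all tested genes were called. Without cholesterol 2 of the 7 were called higher and 3 lower in Trem2-/- than in WT cells, beside 43.6% of all tested genes called. Among them Cyp27a1 (0.85) and Soat1 (0.64) were higher and Sc5d (-0.69) lower. Ch25h, which makes an oxysterol, was listed at 0 in all libraries.

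Genes that work beside the receptors were examined next. Of 15 tested coregulators none was called with cholesterol in either genotype (1 lower in each at an unadjusted p under 0.05, none by DESeq2). None was called in the difference of responses either. Of all tested genes 2.80% were called with cholesterol in WT cells, 0.140% in Trem2-/- cells and 3.64% in the difference of responses. Counts of 0 of 15 do not set these genes apart from those shares. Between the genotypes without cholesterol the corepressor complex genes Tbl1xr1 (0.31) and Hdac3 (-0.20) went in opposite directions, and the coactivator Ncoa1 was higher (0.33). Of 7 other nuclear receptors that pair with or resemble RXR, Rarg (0.74) and Ppard (0.38) were higher in Trem2-/- non-foamy cells, and Rxrg, the third retinoid X receptor gene, was listed at 0 in all libraries. Between the non-foamy genotypes 43.6% of all tested genes were called. With cholesterol none of the 7 was called in either genotype by edgeR or DESeq2, with 0 at an unadjusted p under 0.05.

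Of 6 tested Mylip substrates and partners, 3 were lower and none higher in Trem2-/- than in WT cells, both with and without cholesterol (edgeR, the same counts at an unadjusted p under 0.05 and by DESeq2). Over all tested genes 43.6% and 30.2% were called in these comparisons without and with cholesterol. In the same order of groups, the substrate Lrp8 was at 35.3, 31.0, 19.7 and 22.0 CPM. Against WT, Trem2-/- cells without cholesterol were lower in Lrp8 (-0.85) and Usp2, a deubiquitinase that counters Mylip (-0.72), and both were also lower with cholesterol (-0.50 and -0.61), where the difference in Mylip was not called. Mylip acts on the receptor proteins, which were not measured in these libraries. Of the 6 tested genes none was called with cholesterol in WT (2 lower at an unadjusted p under 0.05, none by DESeq2) or Trem2-/- cells (0 at an unadjusted p under 0.05, none by DESeq2). The shares of all tested genes called in these 2 responses were 2.80% and 0.140%. Vldlr, another substrate, was listed at 0 in all libraries.

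Relatives of the lipid genes were examined where the genes themselves were scarce. Smpdl3b, the relative of Smpdl3a, was well expressed at 183, 168, 117 and 137 CPM in the same order of groups, and its responses differed (0.36, adjusted p = 0.0182). Without cholesterol Lpcat4 (-1.36), like Lpcat3, and Smpd4 (-0.51) were lower in Trem2-/- than in WT cells, while Smpd1, the lysosomal acid sphingomyelinase, was higher (0.40). Of the 9 tested relatives none was called with cholesterol in WT cells (1 lower at an unadjusted p under 0.05, none by DESeq2) or in Trem2-/- cells (2 higher at an unadjusted p under 0.05, 1 higher by DESeq2). Of all tested genes 2.80% were called with cholesterol in WT cells and 0.140% in Trem2-/- cells. The shares were 43.6% between the non-foamy genotypes and 3.64% in the difference of responses.

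**Figure D4:**
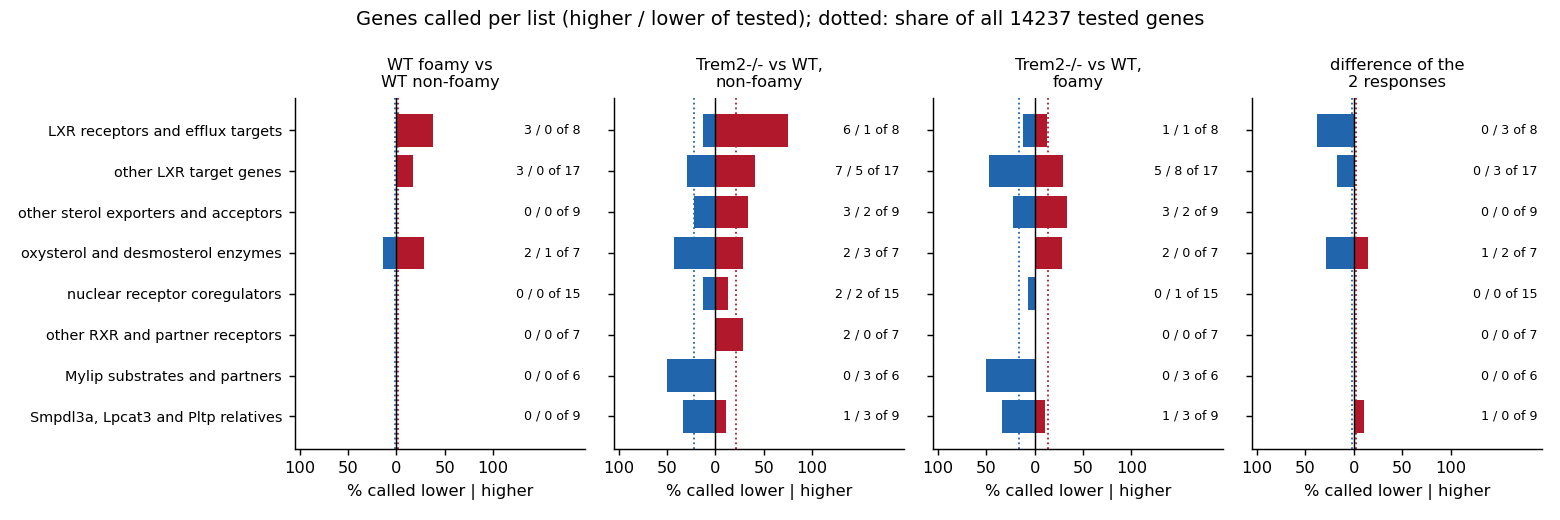
Share of tested genes of each list called higher (red, right) and lower (blue, left) in 4 comparisons, in percent, with the counts (higher / lower of tested) beside the bars and the shares of all 14237 tested genes as dotted lines. In WT foamy against WT non-foamy cells 3 lists hold called genes: the LXR receptors and efflux targets (3 of 8), other LXR targets (3 of 17) and oxysterol and desmosterol enzymes (3 of 7).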

How the data were processed

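Bulk RNA-seq of 15 libraries was used, and other experiments of the study were not analysed here. The authors deposited raw read counts per gene, as whole numbers without normalization, in 1 table per library. Per the methods, reads were trimmed with Trimmomatic, aligned to GRCm38 with HISAT2 and counted with featureCounts. How strand and multiply aligned reads were treated was not given in the sources used here, and this could move reads between overlapping or similar genes. Counts were scaled with TMM factors (0.918 to 1.11) and kept where filterByExpr found enough for a minimum count of 10, which left 14237 genes with 99.97% of all reads. A single fit of all libraries, with a mean for each group, was made in edgeR 4.0.16 (glmQLFit and glmQLFTest, R 4.3.3), and p-values were adjusted by Benjamini-Hochberg over all tested genes in each comparison, with 0.05 as the threshold. The biological coefficient of variation was 10.2%. The methods name DESeq2 (1.42.0 here), which was an alternative, with its own size factors and filter. The other alternatives were RLE factors, total counts alone, no filter, only the groups compared, a replicate block and leaving out each library. Intervals of 95% around log2 fold changes come from the edgeR fit and include the spread between libraries, and limits for genes at 0 reads cover counting error only. Exonic lengths and overlaps came from GENCODE M21 (GRCm38), and promoters from RefSeq (GRCm38.p6). The procedure was tested on simulated data. Same-numbered libraries of different groups did not deviate together, as 1 of 21 pairs had a correlation over 0.1 (range -0.10 to 0.14). The genes, lists and the rule for naming genes were chosen with earlier results of these data known. By that rule all 10 genes and Trem2 are named, the 5 genes most like Abca1, and up to 4 genes of each other list by their p in the difference of responses or, where fewer than 2 were called there, between the non-foamy genotypes. Abca6, Abcg4, Ch25h, Lcat, Rxrg and Vldlr were named after their values were seen. Some genes of these lists are counted but not reported here by name.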

Additional observations from a re-analysis of the deposited data

Results flagged for a closer look

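The response to cholesterol differed between Trem2-/- and WT cells for Abca1 (-1.31 on the log2 scale, s.e. 0.14, adjusted p = 4.32e-06), Abcg1 (-1.19, s.e. 0.14, adjusted p = 2.25e-05) and Mylip (-0.91, s.e. 0.11, adjusted p = 2.04e-05), by the interaction term of edgeR. Abcg1 in WT non-foamy replicate 3 was 34.4 CPM, far below the nearest other library of its group at 45.0 CPM, with a gap of 0.926 of the group's range. Trem2 in Trem2-/- foamy replicate 3 was 218 CPM, against 226 CPM in the nearest library, with a gap of 0.959 of a narrow range. The limit for 4 libraries is 0.829, and chance alone passes it in about 1 of 20 groups, of which 27 were examined. Without WT non-foamy replicate 3 the WT response of Abcg1 was 0.67 and was still called.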

How the results depend on the processing

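Over all alternatives none of the values for the 8 tested genes changed direction with a call. The counts of genes called moved most where few genes were called. In WT foamy against non-foamy cells, 399 genes were called by edgeR, 860 by DESeq2, 607 with no filter, 144 with only the groups compared, 146 to 526 when 1 library was left out, and 715 without both WT non-foamy replicate 3 and WT foamy replicate 1, an alternative chosen after seeing the data. In Trem2-/- foamy against non-foamy cells, 20 became 62 (DESeq2), 61 (no filter) and 10 to 18 (1 library left out). For the difference of responses, 518 became 983 (DESeq2), 294 (replicate block), 802 (without those 2 WT libraries) and 201 to 661 (1 library left out). Of the set, the 2 genes called in the Trem2-/- response became 0 with total counts, 1 with the replicate block (Mylip, while Abca1 had an adjusted p of 0.171) and 0 to 1 with 1 library left out. The 7 called between non-foamy genotypes became 4 with total counts, the 2 between foamy genotypes became 1, and the 5 in Trem2-/- non-foamy against WT foamy cells became 2, and 3 to 6 with 1 library left out. There Rxra also lost its call with the replicate block (adjusted p = 0.0746). Total counts lowered the log2 fold changes of all genes by a median of 0.13 to 0.14 in each comparison of Trem2-/- with WT, with 1820 genes higher and 4379 lower in place of 2985 and 3222 without cholesterol, and 1115 and 3666 in place of 2036 and 2261 with it. In the WT response, 237 higher and 162 lower became 406 and 454 (DESeq2) and 179 and 249 (total counts), and 284 and 234 in the difference of responses became 397 and 168 (total counts). In the Trem2-/- response, 15 and 5 became 40 and 22 (DESeq2). The causes were not tested. The calls of Abca1, Abcg1 and Mylip in the WT response, between the non-foamy genotypes and in the difference of responses held in every alternative, the replicate block included. Pltp and Smpdl3a were too low for any comparison.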
